A study of Mus musculus with 4 samples.

Results

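The genes described here are 10 members of the vascular endothelial growth factor (VEGF) and apelin systems: the VEGF ligand genes Vegfa, Vegfb, Vegfc, Vegfd and Pgf, the receptor genes Flt1 and Kdr, the co-receptor genes Nrp1 and Nrp2, and the peptide ligand gene Apln. They were chosen by symbol, and each matched 1 of the 39056 rows of the deposited gene count table. The table holds 4 RNA-seq libraries labelled as cells from the lungs of S1PR1-GFP mice, a strain named for a green fluorescent reporter of the sphingosine-1-phosphate receptor gene S1pr1. According to the labels the sort kept cells with the reporter and CD31, an endothelial surface protein, but without CD45, which marks leukocytes. There was 1 library for animals without lipopolysaccharide (LPS, a bacterial endotoxin) and 1 library each labelled 8, 16 and 20 h of LPS at 10 mg/kg into the peritoneum. All 4 groups thus share the reporter strain and the sort. The labels used here do not say what drives the reporter, how old the animals were or whether a library pooled animals.

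VEGF ligands are secreted dimers that act on receptor tyrosine kinases of endothelial cells. VEGF-A binds the receptors encoded by Flt1 and Kdr, VEGF-B and placental growth factor bind the Flt1 product, and VEGF-C and VEGF-D act mainly on the lymphatic receptor encoded by Flt4. Neuropilins bind VEGF ligands and class 3 semaphorins and support signalling through the other receptors. Apelin is a peptide that acts on the G protein-coupled receptor encoded by Aplnr, and its gene is known as a marker of endothelial tip cells. In the lung, epithelial VEGF-A maintains the capillary bed and also raises vascular permeability.

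The libraries held 27566454 to 28905776 reads and between 11316 and 11430 genes of at least 1 CPM (a gene's reads scaled to a fixed library size and corrected for library composition). With 1 library per label, differences between labels had no replicate check, and intervals are 95% intervals of counting error alone. A gene was called higher or lower by a rule of size: a fold of at least 2, an interval of the fold that excluded 1, and a level of 1 CPM or more in whichever library was higher. Such calls compare libraries, not conditions. Markers of the labelled cell type were nearly absent: of 20 endothelial genes, 5 reached 1 CPM in any library and Erg, Emcn, Cldn5, Sox17 and Clec14a had 0 reads in all 4. Pecam1, which encodes CD31, had 7 reads without LPS and 2, 2 and 1 at 8, 16 and 20 h, the order kept for all values below, and the VE-cadherin gene Cdh5 had 5, 6, 6 and 9. S1pr1, the gene of the sort, had 27, 87, 79 and 29 reads and was called higher at 8 and 16 h. The summed level of the endothelial list was 108, 116, 118 and 108 CPM, most of it from Eng and Calcrl, which other cell types also express. The hours below therefore name the library with that label and not a state of endothelial cells, and the labels leave unsaid from what event the hours run. In bulk RNA, fewer cells of a type and less RNA per cell cannot be told apart.

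Vegfa was the most abundant member per kilobase of exon, and its level at 8 and 16 h was 0.505 and 0.510 times that without LPS. Apln, Flt1, Nrp1 and Vegfc were called higher at 8 h and at 16 h, by 2.33-fold to 3.61-fold, and Pgf was called higher at 16 h. At 20 h no member was called against no LPS. Vegfb and Nrp2 stayed within 1.18-fold of their level without LPS in the 3 comparisons, and Kdr was near the limit of detection in all 4 libraries.

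Stretches of 250 bases upstream of a RefSeq transcription start are shown for the 4 genes called higher at both 8 and 16 h and for Vegfa, which stood lower there, so that the promoters of genes with opposite patterns can be set side by side. The sequences are from RefSeq on GRCm38.p6, the assembly behind mm10, 5′ to 3′ on the strand of the gene, and all 10 members had an entry. The windows are chrX:48034854-48035103 (minus strand) for Apln, chr5:147726012-147726261 (minus strand) for Flt1, chr8:128358823-128359072 (plus strand) for Nrp1, chr8:54077282-54077531 (plus strand) for Vegfc and chr17:46032378-46032627 (minus strand) for the outer start of Vegfa. The Nrp1 window lies inside the annotated gene, past the start of its most upstream transcript, and like the other 4 windows it holds 0 bases of the gene's annotated exons. Capitals mark matches to the searched motifs, which in these windows were the GC box, GGGCGG, and in Flt1 also a TATA box, TATAAA.
Apln: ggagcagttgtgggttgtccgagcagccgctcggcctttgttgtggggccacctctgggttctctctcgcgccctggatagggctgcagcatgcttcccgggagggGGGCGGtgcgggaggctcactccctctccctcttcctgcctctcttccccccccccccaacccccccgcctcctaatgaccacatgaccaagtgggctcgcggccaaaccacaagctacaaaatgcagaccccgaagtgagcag
Flt1: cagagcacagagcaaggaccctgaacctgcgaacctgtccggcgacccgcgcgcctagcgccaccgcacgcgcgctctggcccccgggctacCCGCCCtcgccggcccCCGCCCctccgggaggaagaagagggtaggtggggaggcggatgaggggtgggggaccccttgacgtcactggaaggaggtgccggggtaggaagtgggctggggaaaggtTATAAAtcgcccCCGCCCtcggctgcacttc
Nrp1: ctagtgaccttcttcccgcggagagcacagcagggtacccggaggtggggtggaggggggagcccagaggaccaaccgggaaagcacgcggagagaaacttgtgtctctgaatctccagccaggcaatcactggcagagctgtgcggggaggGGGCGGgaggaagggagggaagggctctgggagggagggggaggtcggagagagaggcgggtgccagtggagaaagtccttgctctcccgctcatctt
Vegfc: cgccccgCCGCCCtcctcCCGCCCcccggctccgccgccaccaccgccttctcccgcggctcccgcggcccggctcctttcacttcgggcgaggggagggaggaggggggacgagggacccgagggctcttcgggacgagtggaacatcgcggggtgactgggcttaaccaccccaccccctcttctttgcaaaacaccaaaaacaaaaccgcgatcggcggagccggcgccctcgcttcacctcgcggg
Vegfa: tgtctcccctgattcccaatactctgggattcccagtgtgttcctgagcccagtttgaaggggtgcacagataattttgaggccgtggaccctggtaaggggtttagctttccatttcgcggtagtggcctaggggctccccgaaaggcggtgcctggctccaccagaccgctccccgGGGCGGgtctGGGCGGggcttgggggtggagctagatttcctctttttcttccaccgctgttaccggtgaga

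The promoters were rich in G and C. The share of G and C was 65.2% for Apln, 70.4% for Flt1, 64.4% for Nrp1, 71.6% for Vegfc and 59.2% for Vegfa, against a median of 52.4% over 32841 RefSeq promoter windows of the same length. The GC box, read on both strands, occurred 1 time in Apln, 3 times in Flt1, 1 time in Nrp1, 2 times in Vegfc and 2 times in Vegfa, and it was present in 32.7% of all windows. Over the first window of each member it was present in 9 of 10, Vegfd being the exception. All 250 bases of that Pgf window lay in annotated exons of the gene, as did 144 bases of the Vegfd window. A second Pgf window had no GC box. The TATA box was present in 12.4% of all windows. The other motifs searched on both strands had no match in these 5 windows: the hypoxia response core ACGTG (16.6% of all windows), the AP-1 motif TGANTCA (6.75%), the EGR motif GCGTGGGCG (0.536%), the TEAD motif GGAATG (12.6%) and the NF-kB motif GGANTTTCC (1.07%). The EGR motif can overlap a GC box by its last 5 bases, and the other motifs were counted separately. A second RefSeq start of Vegfa, inside the gene, had 1 GC box and 1 hypoxia response core in its window. Of that window 218 bases lay in annotated exons. The GC box was thus present both in the promoters of members called higher and in that of Vegfa. A match is a stretch of letters and was not tested as a binding site.

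Levels were compared between genes per kilobase of annotated exon. This length joins the exons of all annotated transcripts of a gene and can exceed that of any single transcript. The counting intervals do not cover this error. In the library without LPS, Vegfa stood at 109 CPM per kb, followed by Nrp2 at 28.4 and Vegfb at 24.0, and their counting intervals did not overlap. Apln followed at 5.25 CPM per kb. Vegfd at 1.22 and Pgf at 1.19 CPM per kb had overlapping intervals, as had Vegfc at 0.303 and Nrp1 at 0.271, while Flt1 at 0.867 lay between these pairs. Kdr was last at 0.0313 CPM per kb. At 8 h the first 4 places were the same, with Vegfa at 54.9, Nrp2 at 26.9, Vegfb at 24.4 and Apln at 17.8 CPM per kb. At 20 h, Nrp2 and Vegfb had overlapping intervals, at 28.5 and 28.4 CPM per kb.

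**Figure D1:**
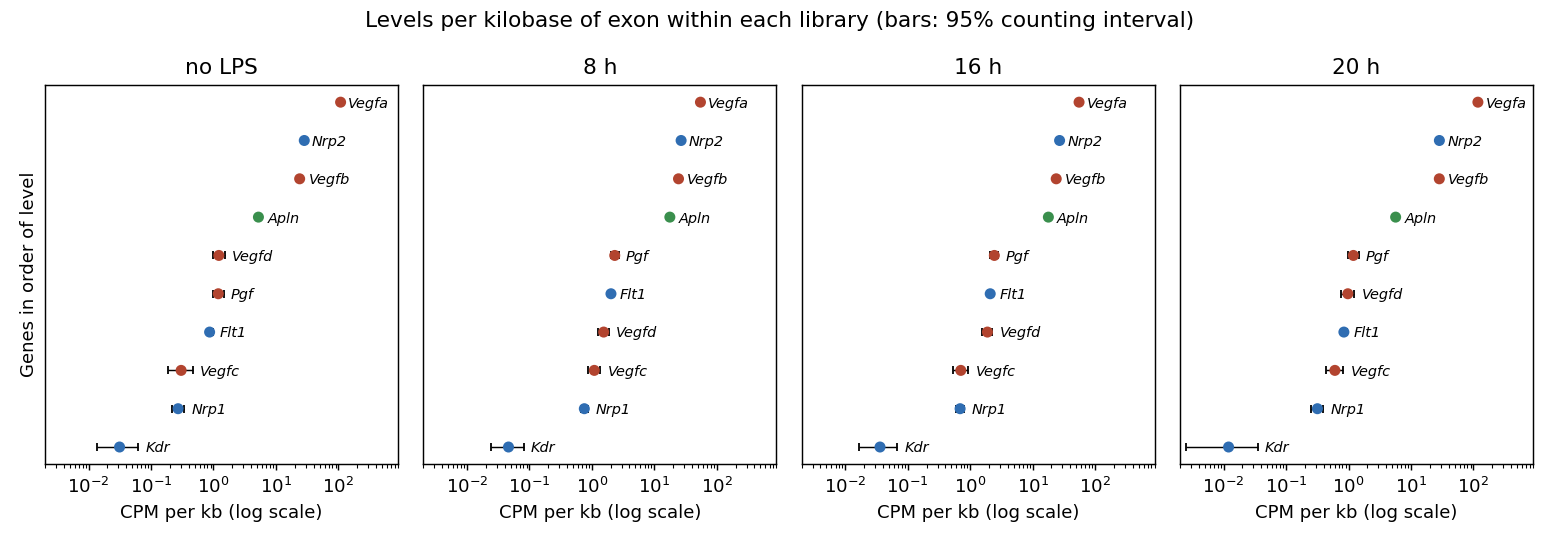
Level of each gene in CPM per kilobase of annotated exon (log axis) within each of the 4 libraries, with genes in order of level, VEGF ligands in red, receptors and co-receptors in blue and apelin in green. Bars are 95% counting intervals. Vegfa is the highest in each library (109, 54.9, 55.4 and 118 CPM per kb) and Kdr the lowest.

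Among the ligands, Vegfa (chr17:46016993-46032369, minus strand, mm10, protein coding like all the members) encodes the principal VEGF. It had 13148, 6750, 6576 and 13989 reads, or 465, 235, 237 and 505 CPM. The libraries thus formed a low pair, 8 and 16 h, and a high pair, no LPS and 20 h, with no overlap of their counting intervals. Against no LPS the level was 1.98-fold lower at 8 h (1.92 to 2.04) and 1.96-fold lower at 16 h (1.90 to 2.02), just short of the 2-fold of the rule, so that Vegfa was not called in either comparison. Its level at 20 h was 1.09-fold that without LPS (1.06 to 1.11). Between 16 and 20 h Vegfa was called higher, by 2.13-fold (2.07 to 2.19). The call against no LPS depends on the scaling: with plain library totals Vegfa was called lower at 8 h, at a log2 ratio of -1.004, and with a loess adjustment it was called lower at 8 h and 16 h, at -1.03 and -1.01.

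Vegfb (chr19:6982473-6987651, minus strand) encodes a ligand of the Flt1 product that is abundant in heart and muscle. It had 1088, 1126, 1061 and 1263 reads without LPS and at 8, 16 and 20 h, or 38.5, 39.2, 38.3 and 45.6 CPM. The first 3 libraries had overlapping intervals, and the 20 h library was the highest. Its fold against no LPS was 1.02 at 8 h (0.937 to 1.11), 0.995 at 16 h (0.913 to 1.08) and 1.18 at 20 h (1.09 to 1.29).

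Vegfc (chr8:54077606-54187096, plus strand) encodes the main growth factor of lymphatic vessels. It was rare, with 21, 77, 48 and 41 reads, or 0.743, 2.68, 1.73 and 1.48 CPM. The library without LPS was the lowest and the 8 h library the highest. Vegfc was called higher at 8 h, by 3.61-fold (2.20 to 6.16), and at 16 h, by 2.33-fold (1.37 to 4.10), a call that was lost with the stricter interval level tried. At 20 h it stood at 1.99-fold (1.15 to 3.55), under the threshold but with an interval that excluded 1. Unlike the other members called higher, it had an interval excluding 1 between 16 and 8 h, at 1.55-fold lower (1.07 to 2.27), which was not a call.

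Vegfd (chrX:164373378-164402650, plus strand), which encodes a ligand close to VEGF-C and is expressed in lung mesenchyme, had 83, 107, 126 and 65 reads, or 2.94, 3.73, 4.55 and 2.35 CPM. It was not called against no LPS, with folds of 1.27 at 8 h (0.944 to 1.71), 1.55 at 16 h (1.16 to 2.07) and 0.799 at 20 h (0.569 to 1.12). The 16 h library was the highest and the 20 h library the lowest, and these differed by 1.94-fold (1.43 to 2.66). Pgf (chr12:85166635-85177790, minus strand) encodes placental growth factor, which occupies the Flt1 product and not that of Kdr. It had 98, 194, 196 and 96 reads, or 3.47, 6.76, 7.07 and 3.47 CPM. The 8 and 16 h libraries lay above the other libraries without overlap. Pgf was called higher at 16 h, by 2.04-fold (1.59 to 2.63), and stood at 1.95-fold at 8 h (1.52 to 2.51), which was not a call.

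Summed over the 5 ligand genes per kilobase, the level was 135, 84.3, 84.3 and 149 CPM per kb in the 4 libraries. Vegfa made up 80.3%, 65.1%, 65.7% and 79.1% of this sum, and Vegfb 17.7%, 29.0%, 28.3% and 19.1%. Pgf made up 0.883%, 2.76%, 2.89% and 0.801%. The smaller sum at 8 and 16 h went with a smaller share of Vegfa and larger shares of the other 4 ligand genes. Shares of a sum depend on each other, so a lower Vegfa level by itself raises the other shares. The level of Vegfb was 24.0, 24.4, 23.9 and 28.4 CPM per kb.

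**Figure D2:**
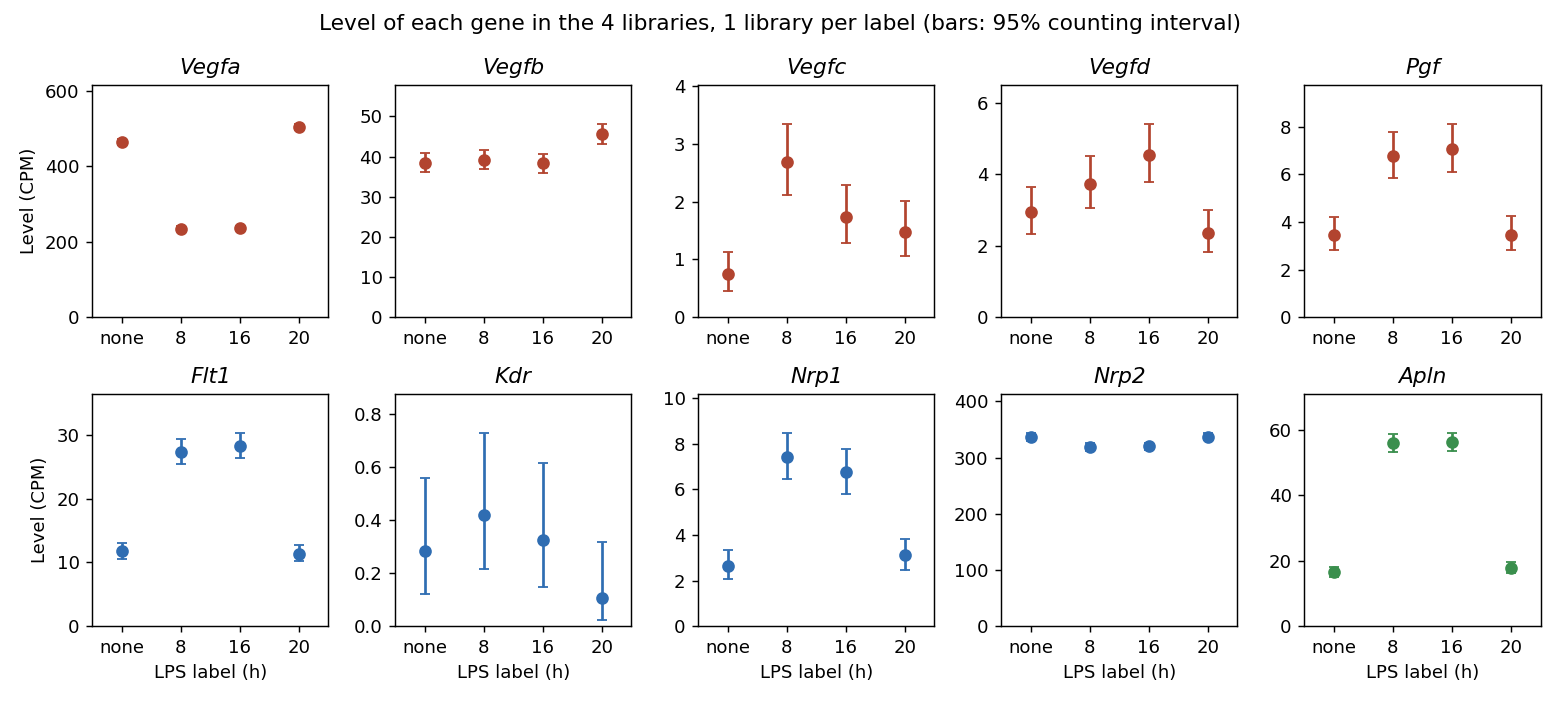
Level of each of the 10 genes in CPM (linear axes from 0, a scale of its own for each gene) by label, from no LPS to 20 h, 1 library each, with 95% counting intervals as bars. Vegfa is low at 8 and 16 h (235 and 237 CPM), Pgf, Flt1, Nrp1 and Apln are high there, and Vegfb and Nrp2 vary little.

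Among the receptors, Flt1 (chr5:147561604-147726011, minus strand) encodes VEGF receptor 1, which binds VEGF-A tightly but signals weakly and also exists as a soluble trap. It had 331, 785, 783 and 315 reads, or 11.7, 27.3, 28.3 and 11.4 CPM. The 8 and 16 h libraries lay above the other libraries without overlap. Flt1 was called higher at 8 h, by 2.33-fold (2.05 to 2.66), and at 16 h, by 2.41-fold (2.12 to 2.75), and was at 0.971-fold at 20 h (0.830 to 1.14). The counts are per gene, so the membrane-bound and the soluble form were not separated.

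Kdr (chr5:75932827-75978458, minus strand) encodes VEGF receptor 2, the main signalling receptor of endothelium. It had 8, 12, 9 and 3 reads, or 0.283, 0.418, 0.325 and 0.108 CPM, and was the 1 member of 10 that did not reach 1 CPM in any library. A gene with 0 reads could have had up to 0.104 to 0.108 CPM (3 reads), so the 20 h value lay at that limit and no difference between libraries was detectable at this depth. Flt4, which encodes VEGF receptor 3, had 1, 1, 3 and 2 reads. Thus of the 3 VEGF receptor tyrosine kinase genes Flt1 alone reached 1 CPM in these libraries.

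The co-receptors differed from each other. Nrp1 (chr8:128358604-128503363, plus strand), which encodes the neuropilin that partners VEGF receptor 2 in arteries and capillaries, had 75, 213, 187 and 86 reads, or 2.65, 7.42, 6.75 and 3.11 CPM. Nrp1 was called higher at 8 h, by 2.80-fold (2.14 to 3.69), and at 16 h, by 2.54-fold (1.94 to 3.37), and stood at 1.17-fold at 20 h (0.849 to 1.62). A microRNA gene overlaps an Nrp1 exon on the same strand, and no exon of the other 9 members overlaps an annotated exon of another gene. Nrp2 (chr1:62703285-62818695, plus strand), which encodes the neuropilin of veins and lymphatics, had 9520, 9143, 8863 and 9342 reads, or 337, 318, 320 and 337 CPM. Compared with the library without LPS its fold was 0.946 at 8 h (0.919 to 0.973) and 0.950 at 16 h (0.922 to 0.978), and its 20 h level differed by 0.0022 on the log2 scale, with a fold interval of 0.973 to 1.03. There were 0.00788 reads of Nrp1 per read of Nrp2 without LPS (0.00619 to 0.00989), 0.0233 at 8 h (0.0202 to 0.0267), 0.0211 at 16 h and 0.00921 at 20 h, a measure that no scaling of the libraries alters.

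Apln (chrX:48025146-48034853, minus strand) encodes the apelin precursor. It had 467, 1605, 1559 and 495 reads, or 16.5, 55.9, 56.3 and 17.9 CPM. The 8 and 16 h libraries were the high pair, without overlap with the others. Apln was called higher at 8 h, by 3.38-fold (3.05 to 3.76), and at 16 h, by 3.41-fold (3.07 to 3.78), and stood at 1.08-fold at 20 h (0.951 to 1.23). Its receptor gene Aplnr had 6, 1, 2 and 3 reads in the 4 libraries, below the 1 CPM minimum in each. Within the libraries there were 28.2 reads of Vegfa per read of Apln without LPS (25.7 to 30.9), 4.21 at 8 h (3.98 to 4.44), 4.22 at 16 h (3.99 to 4.46) and 28.3 at 20 h (25.8 to 31.0). Reads of Vegfa per read of Flt1 numbered 39.7, 8.60, 8.40 and 44.4 in the same order. Both ratios were thus low in the 8 and 16 h libraries, where their intervals lay apart from those of the other libraries.

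**Figure D3:**
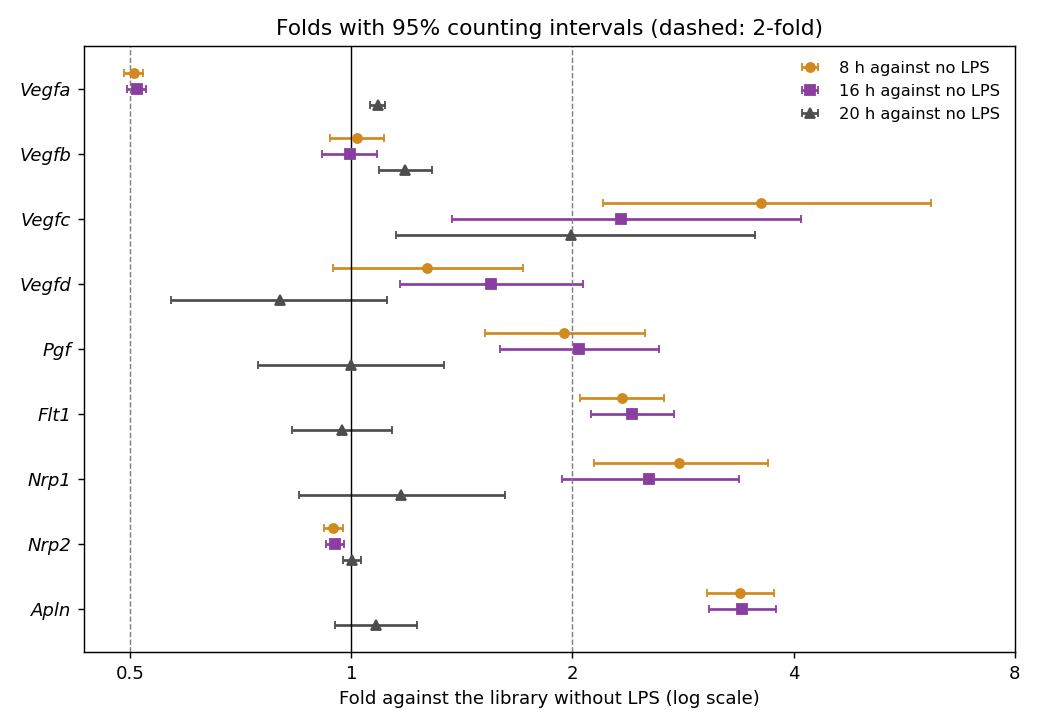
Fold of 9 genes against the library without LPS (log axis) at 8 h (circles), 16 h (squares) and 20 h (triangles), with 95% counting intervals as bars and the 2-fold limits dashed. Kdr is left out, being under 1 CPM. At 8 and 16 h, Apln (3.38 and 3.41) and Flt1 (2.33 and 2.41) lie beyond 2-fold, Vegfa lies at the lower limit (0.505 and 0.510), and the 20 h folds lie between 0.799 and 1.99.

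The comparison of 8 h with no LPS had 4 of the 9 measured members called higher, beside 4.24% of all 11650 genes of at least 1 CPM in either library, and 0 called lower, beside 4.18%. Vegfb, Vegfd, Pgf, Nrp2 and Vegfa were not called. The median log2 ratio of the 9 members was 0.95, against 0.0042 over all measured genes. Of all measured genes, 99.3% had a smaller log2 ratio than Vegfc and 99.3% a smaller one than Apln, 98.5% a smaller one than Nrp1 and 97.5% a smaller one than Flt1, while 95.8% had a larger one than Vegfa. Pgf lay above 95.5% of genes. The members other than Vegfb, Vegfd and Nrp2 thus lay near the ends of the distribution.

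At 16 h, 5 of the 9 measured members were called higher, beside 4.19% of 11644 genes, and 0 were called lower, beside 4.15%. Vegfb, Vegfd, Nrp2 and Vegfa were not called, and the median log2 ratio of the members was 1.01 against 0.0060 over all measured genes. At 20 h, 0 of 9 members were called higher, beside 0.563% of 11537 genes, and 0 were called lower, beside 0.104%. The median log2 ratio was 0.11 against -0.0027. Of the 9 measured members the farthest from no LPS at 20 h was Vegfc, above 99.3% of genes at 41 against 21 reads. These 3 comparisons share the library without LPS, so their likeness is not independent.

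Between successive times the measured members other than Vegfc differed less from 8 to 16 h than from 16 to 20 h. Of the 9 measured members 0 were called at 16 h against 8 h, beside 0.166% of 11445 genes called higher and 0.0786% called lower. At 20 h against 16 h, 1 member, Vegfa, was called higher, beside 4.68% of 11678 genes, and 4 were called lower, beside 3.89%. The lower ones were Apln at 3.15-fold (2.84 to 3.49), Flt1 at 2.48-fold (2.18 to 2.84), Nrp1 at 2.17-fold (1.67 to 2.84) and Pgf at 2.04-fold (1.59 to 2.63). Vegfc was not called, at 1.17-fold lower (0.755 to 1.82), a smaller difference than its 1.55-fold (1.07 to 2.27) between 8 and 16 h.

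**Figure D4:**
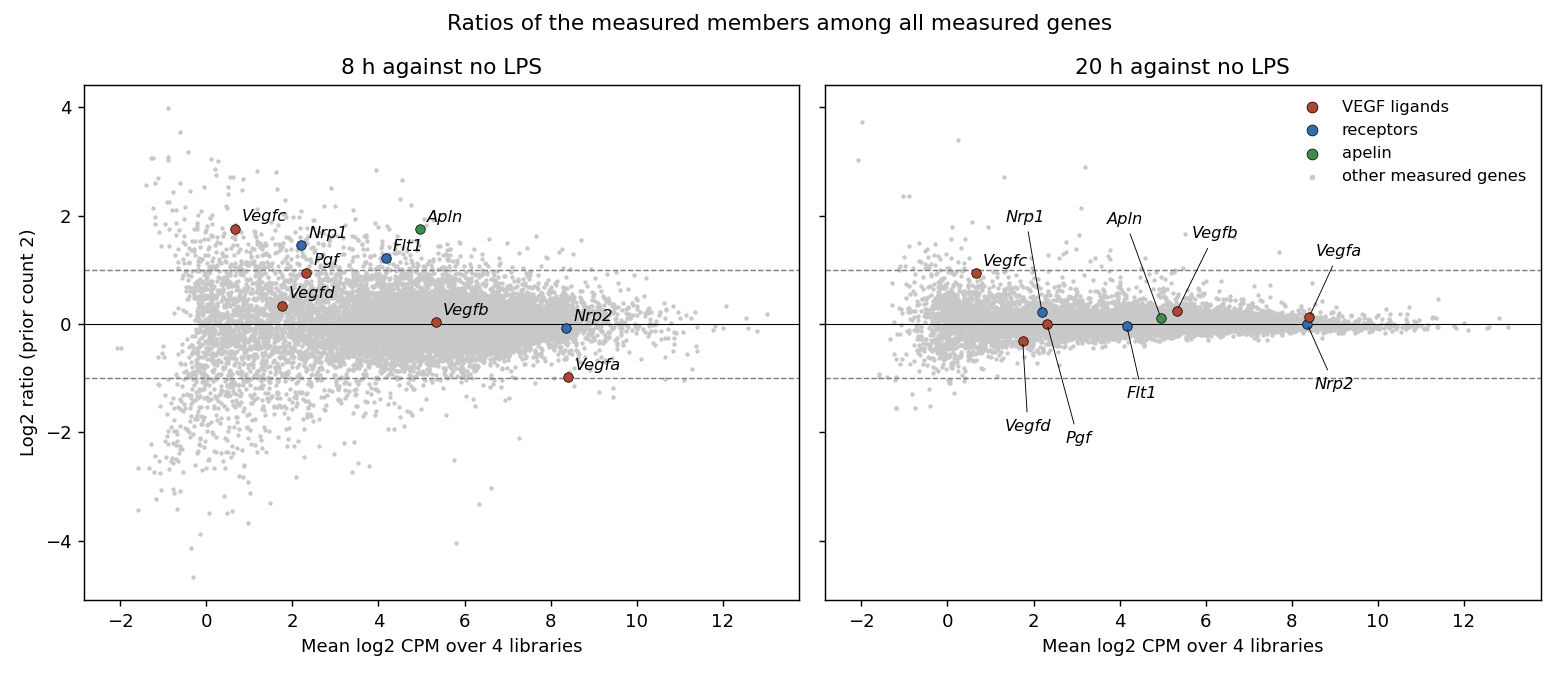
Log2 ratio (prior count 2) against the mean log2 CPM over the 4 libraries for all genes that reached 1 CPM in any library (grey) and the 9 measured members (coloured), for the 8 h (left) and 20 h (right) libraries against the one without LPS. Dashed lines mark 2-fold. At 8 h Vegfc, Apln, Nrp1 and Flt1 lie above the upper line and Vegfa (-0.98) at the lower one, and at 20 h all 9 members lie between the lines.

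Some genes in marker lists of other cell types were called in the same libraries. Over all genes of at least 1 CPM in either library, 4.24% were called higher and 4.18% lower at 8 h. The shares were 4.19% and 4.15% at 16 h, and 0.563% and 0.104% at 20 h. In the lung epithelial list, 5 of 15 genes were measured and Krt8, Krt18 and Rtkn2 were called higher at 8 and 16 h. Epcam had 2, 3, 2 and 1 reads and Cdh1 5, 4, 4 and 3. Ager had fewer reads at 8 and 16 h, at 23, 5, 11 and 20, and was not called. The summed level of that list was 65.1, 149, 153 and 66.2 CPM. Without Krt18 it was 27.0, 58.5, 60.6 and 28.5 CPM, most of it from Krt8 and Rtkn2. The alveolar genes Sftpb and Nkx2-1 of that list had 0 reads in all 4 libraries. In the leukocyte and macrophage list, 13 of 20 genes were measured, with Adgre1 called higher and S100a8 lower at 8 and 16 h. These had few reads, at 12, 31, 77 and 24 for Adgre1 and 34, 6, 7 and 25 for S100a8. Ptprc, which encodes CD45, had 42, 37, 31 and 38 reads and was not called. Csf1r was also called higher at 16 h (3.40-fold, 1.57 to 8.14) and Cd53 at 20 h (2.48-fold, with a lower bound of 1.30), on 34 reads or fewer in each library. The sum was 158, 128, 129 and 162 CPM, or 58.4, 61.6, 66.6 and 64.9 CPM without Cd68, and Cd3e and Nkg7 had 0 reads. In the fibroblast and mesenchymal list, 9 of 16 genes were measured. Npnt, S100a4 and Gsn were called higher and Col3a1 and Dcn lower at 8 and 16 h. The sum without Vim was 2100, 1779, 1755 and 2026 CPM, of which Fn1 gave 1596, 1218, 1184 and 1535 CPM. Tcf21 had 0 reads, Col1a1 had 2, 3, 4 and 0, and Col1a2 had 0, 0, 1 and 0. Of the pericyte and smooth muscle list 2 of 10 genes were measured, with sums of 6.48 to 9.13 CPM and Higd1b at 0. Of the mesothelial list 1 of 6 was measured, with sums of 3.14 to 4.46 CPM and Wt1 at 0. Of the lymphatic list 0 of 7 were measured, with Ccl21a and Mmrn1 at 0. The part of these cells in the levels of the members was not tested.

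Other genes of the pathway were read by the same rule. Over all genes of at least 1 CPM in either library, 4.24% were called higher and 4.18% lower at 8 h. The shares were 4.19% and 4.15% at 16 h, and 0.563% and 0.104% at 20 h. They stand beside the counts of every list below, and a count of 1 or 0 at 8 or 16 h is near or under them in most lists. Of 27 related receptors, co-receptors and ligands 19 were measured, and 1 was called higher and 2 lower at 8 h, with a median log2 ratio of 0.22. Over the 11803 genes that reached 1 CPM in any of the 4 libraries, the set from which the lists were read, the median was 0.0041 at 8 h, 0.0056 at 16 h and -0.0022 at 20 h. At 16 h, 1 was called higher and 1 lower, and at 20 h 0 were called. The higher gene was Sema3e, which encodes a semaphorin that signals through plexin D1 and repels endothelial cells, at 29.1, 81.4, 82.7 and 28.3 CPM and 2.80-fold (2.58 to 3.03) at 8 h. The lower genes were the semaphorin genes Sema3b, at 3.72, 1.67, 1.66 and 3.36 CPM, and Sema3c, at 7.04, 3.24, 4.40 and 6.43 CPM, the second of them at 8 h alone. Most semaphorins of this class bind neuropilins. Of the called genes, Sema3e was higher and Sema3b and Sema3c were lower. Nrp2 varied by less than 1.06-fold, while Nrp1 was 2.80-fold higher at 8 h and 2.54-fold higher at 16 h. A link between these genes was not tested.

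Among 59 measured genes of VEGF receptor signalling of 65 listed, which are largely kinases, adaptors and GTPases shared by many receptors, 1 was called higher and 1 lower at 8 h, 1 higher at 16 h and 0 at 20 h. The higher one was Sphk1, which makes sphingosine-1-phosphate, at 1.49, 6.27, 6.46 and 2.02 CPM. The lower one at 8 h was the endothelial nitric oxide synthase gene Nos3, at 31, 11, 21 and 21 reads. The median log2 ratio was 0.037 at 8 h and 0.057 at 16 h. Of 31 genes that VEGF induces in endothelial cells or that restrain its signal, 26 were measured, and 6 were called higher at 8 h and 6 at 16 h, with 2 lower at 8 h and 1 at 16 h. The median log2 ratio was 0.51 at 8 h, 0.62 at 16 h and 0.067 at 20 h, where 0 were called.

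The higher genes of the induced list included the immediate-early gene Egr1, at 9.09, 57.8, 60.1 and 9.42 CPM and 6.35-fold (5.57 to 7.27) at 8 h. The matricellular gene Ccn2 stood at 1.13, 6.65, 6.68 and 1.66 CPM, and Plat, which encodes tissue plasminogen activator, at 4.74, 14.7, 14.1 and 4.51 CPM. Spry4, an inhibitor of receptor tyrosine kinase signalling, was 2.32-fold higher at 8 h (2.20 to 2.44), and Hbegf, a ligand of the EGF receptor, 2.09-fold (1.98 to 2.22). Many other stimuli induce these genes. Genes of the list called lower at 8 h were Apold1 and Nedd9. The tip cell genes Dll4 and Esm1 of the same list had at most 8 and 1 reads in a library.

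In the hypoxia list, which holds regulators of Vegfa and genes induced beside it, 23 of 24 genes were measured, with 0 called higher and 2 lower at 8 h, 1 lower at 16 h and 0 at 20 h. The median log2 ratio was -0.071 at 8 h and -0.086 at 16 h. The lower genes were Car9, which encodes a carbonic anhydrase, at 2.65, 0.662, 0.938 and 2.89 CPM, and at 8 h Ero1l, which encodes an oxidase of the endoplasmic reticulum, at 2283, 1135, 1149 and 2282 CPM. Ero1l, like Vegfa, lay at the threshold, at 0.497-fold at 8 h (0.490 to 0.504) and 0.503-fold at 16 h (0.497 to 0.510). Hif1a, which encodes the oxygen-regulated subunit of the factor, stood at 474, 451, 447 and 453 CPM. The other 21 measured genes of the list were not called at 8 h.

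Of 19 genes for processing and release of the ligands 10 were measured, and 0 were called at 8 h. Mmp9, which encodes a gelatinase, was called higher at 16 h and 20 h on 13, 16, 34 and 33 reads. The heparanase gene Hpse was called lower at 16 h, at 0.457 times its level without LPS (0.359 to 0.579). Of 37 other angiogenic ligands and receptors 25 were measured. At 8 h 1 was called higher and 2 lower, beside 4.24% and 4.18% of all genes. At 16 h 4 were called higher and 2 lower, beside 4.19% and 4.15%, and at 20 h 0 were called. Among them the Notch ligand gene Jag2 was higher, at 4.25, 9.23, 9.60 and 5.16 CPM, and the guidance gene Slit2 lower, at 21.6, 9.51, 8.81 and 21.6 CPM. Acvrl1 (20, 27, 43 and 20 reads), Fgf2 (50, 20, 38 and 54 reads) and Sema4d (80, 48, 32 and 86 reads) were each called at 1 time and rest on few reads.

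**Figure D5:**
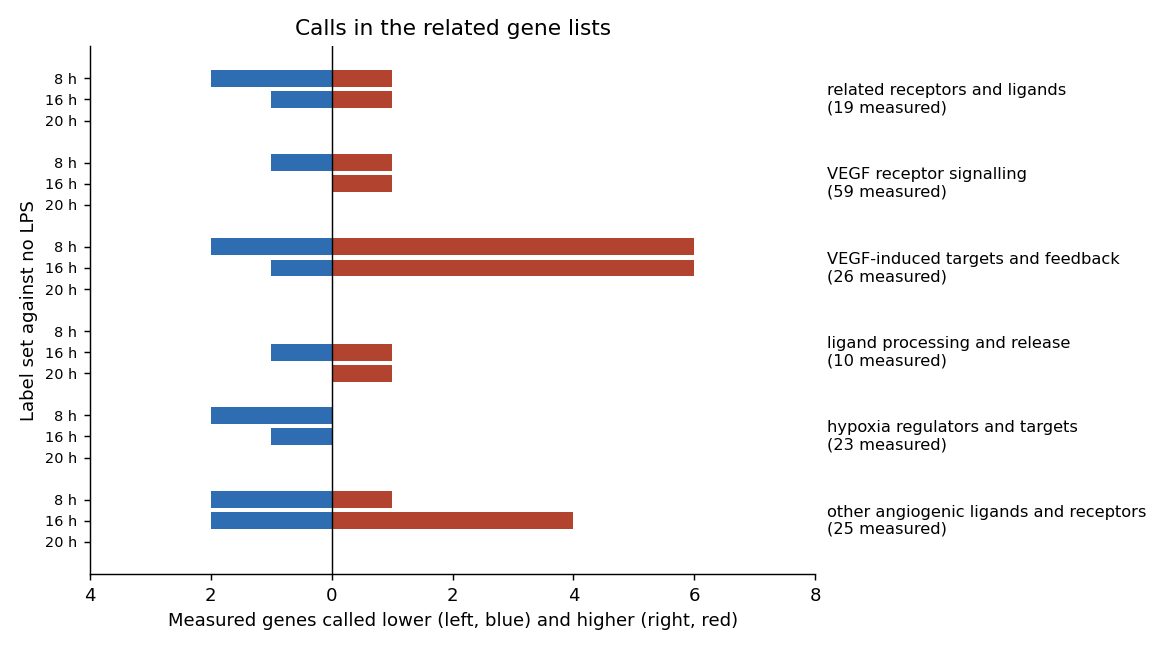
Number of measured genes called lower (left, blue) and higher (right, red) in 6 related gene lists at 8, 16 and 20 h, each against the library without LPS. The list of VEGF-induced targets has the most calls, with 6 higher at 8 h and 6 at 16 h among 26 measured genes, and at 20 h the 6 lists hold 1 call in total, Mmp9. Over all genes, 4.24% were called higher and 4.18% lower at 8 h. The shares were 4.19% and 4.15% at 16 h, and 0.563% and 0.104% at 20 h.

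The genes whose levels followed a member most closely were ranked by the root mean square difference of centred log2 CPM over the 4 libraries, among 8869 named genes of at least 10 CPM in their highest library. For Flt1 the nearest were the keratin gene Krt18 (0.012), the immediate-early gene Ier3 (0.026) and the chloride channel gene Ano1 (0.028). For Pgf they were the chemokine receptor gene Ackr3 (0.0063), Tnfaip8 (0.013) and the cytokinesis gene Cep55 (0.019). For Apln they were the endocytic receptor gene Lrp2 (0.034), E2f2 (0.0425) and Fblim1 (0.047), and for Nrp1 they were Cpt1a (0.032), Dusp14 (0.042) and the centromere gene Cenpa (0.046). Vegfc had no close match, the nearest being Klf2 at 0.21. With 21 to 77 reads, counting error limits how close a match to Vegfc can be. It also stayed under the 10 CPM required of the compared genes. For Vegfa they were the cyclin gene Ccnl2 (0.021), at 377, 189, 194 and 397 CPM, Sbk1 (0.026) and Trim7 (0.027). A small value over 4 libraries describes likeness of level and carries no test.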

How the data were processed

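Polyadenylated RNA of 4 libraries was measured, 1 for each treatment label. The values are unnormalised gene counts as deposited; the submitters' processing notes name STAR, featureCounts and mm10. Program versions, the annotation and the handling of strand and shared reads were not given in the sources used here. Cells of the further time in the protocol were not analysed here. Columns were matched to samples by title, and 38872 of 39056 identifiers matched a GENCODE M21 symbol (mm10). Exon lengths and coordinates, counted from 1, are from that annotation.

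Counts were scaled with TMM factors from edgeR 4.0.16 over all 4 libraries. Fold intervals are exact conditional binomial (Clopper-Pearson) 95% intervals and level intervals exact Poisson 95% intervals. Without molecular identifiers, these intervals and the floor of 3 reads cover counting error only. Log2 ratios used a prior count of 2. No test was run between labels, since each had 1 library. The calling script was tested on simulated data. Alternatives used limma 3.58.1, DESeq2 1.42.0 size factors, library totals, upper quartiles, other minimum levels, fold thresholds, interval levels, prior counts and thinned libraries. A correction for transcript GC content and TMM factors from each pair alone were chosen after seeing the data.

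The members, the gene lists and the call rule were chosen with earlier results of these data known. Named genes were the 10 members, up to 5 called genes per list with the largest absolute log2 ratio, and Flt4, Aplnr, Pecam1, Cdh5 and S1pr1. For each member called against no LPS the 3 genes of most similar pattern were named. Hif1a, Dll4, Esm1, Eng, Calcrl, Apold1, Nedd9, Vim, Cd68, the marker genes at 0 reads and the genes like Vegfa were chosen after their values were seen. So were Epcam, Cdh1, Ager, Fn1, Col1a1, Col1a2 and Ptprc.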

Additional observations from a re-analysis of the deposited data

Results flagged for a closer look

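The level of Vegfa lay on opposite sides of that without LPS at different label times, with intervals that excluded 1: the fold was 0.505 (8 h), 0.510 (16 h) and 1.09 (20 h). At 20 h, 19.7% of all measured genes had a larger log2 ratio than Vegfa, and the intervals cover counting error alone. Each label had 1 library, and the difference between these folds was not tested.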

How the results depend on the processing

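Against no LPS, the members called (4 at 8 h and 5 at 16 h) became 2 and 2 with a minimum of 10 CPM, where Flt1 and Apln were left, and 0 and 0 with a fold threshold of 4. At 20 h against 16 h the count of 5 became 3 with the minimum of 10 CPM and 0 with the threshold of 4. With a threshold of 1.5 the counts of 0 at 20 h against no LPS and at 16 h against 8 h became 1 and 1, Vegfc in both. Against no LPS that threshold also called Vegfa lower at 8 h and 16 h, Pgf higher at 8 h and Vegfd higher at 16 h. At 20 h against 16 h it also called Vegfd lower. The fewer calls follow from the stricter settings themselves. Of 450 log2 ratios of the 10 members recomputed with other scalings, thinning, prior counts or GC centring, 447 kept their side of the rule, and the other 3 were Vegfa, newly called lower against no LPS with library totals (-1.004 at 8 h) and with loess (-1.03 at 8 h and -1.01 at 16 h). The cause of these 3 new calls was not tested. The prior count does not enter the rule, so the ratios recomputed with other prior counts could not change side. The sign changed in 13 of the 450, all of Nrp2, Pgf and Vegfb in comparisons without a call, where the largest absolute value was 0.044. With the stricter interval level Vegfc was no longer called at 16 h, which left 4 members there, and it was still called at 8 h. With GC centring the 5 counts of called members were unchanged. Of the list counts, 63 moved by over 1.5 times and 327 did not. Depth limits Kdr, Flt4 and Aplnr, all under 1 CPM, and Vegfc, with 21 to 77 reads. No paired analysis was possible because each label has 1 library.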
